A study of Homo sapiens with 8 samples.

Results

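A family of 18 short loci on human chromosomes 1, 5, 6, 8 and 17 was chosen by the spacing of its CpGs. Each locus holds at least 1 run of 6 successive listed CpGs whose 5 gaps, read in either direction, are 30-3-22-2-4, 3-22-2-4-3 or 4-3-4-30-3 bp. There were 101 such runs, 31, 34 and 36 of the 3 patterns in that order. After overlapping runs were merged they held 295 CpGs, out of 3086582 autosomal CpGs listed in any library. The patterns had been picked from these libraries for fast loss of methylation, by a measure that the sources used here do not state. Loss over the days is therefore given here as a description, without a test.

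The cells were HUES64, an established human embryonic stem cell line, and the labels give the genotype of every library as DNMT1 knockout. The course follows withdrawal of DNMT1*, an exogenous copy of the enzyme that keeps a line without its own DNMT1 alive, in 1 library per day from day 0 to day 7. Day 0 thus also comes from knockout cells. Methylation was read by reduced representation bisulfite sequencing (RRBS), which sequences DNA next to MspI cut sites. There are no replicates, so errors below are counting errors, spreads over CpGs or, for log slopes, the scatter of the days about a line. A change with the day cannot be told apart from any other difference between libraries.

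DNMT1 copies CpG methylation onto the new DNA strand after replication. Without it the mark is diluted as cells divide, while the de novo enzymes DNMT3A and DNMT3B, which are active in embryonic stem cells, can add methylation back. Tandem repeats near chromosome ends are CpG-rich in part and are usually methylated in somatic and embryonic stem cells.

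The 3 patterns were stretches of 1 and the same ladder of CpGs. Laid over one another they gave a unit of 68 bp with 7 CpGs, separated by 4, 3, 4, 30, 3, 22 and 2 bp, after which the ladder began again. The CpGs are called places 1 to 7 in this order, and every member CpG fell on exactly 1 place. All 101 runs lay in 6 tandem arrays of this unit.

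In hg19 coordinates, 1 array lay on chromosome 1 from 437676 to 438159 (47 member CpGs, 3 loci) and another on chromosome 1 from 544774 to 546102 (111 CpGs, 6 loci). The others lay on chromosome 5 from 180864230 to 180864713 (47 CpGs, 3 loci), chromosome 6 from 171022082 to 171022565 (52 CpGs in 1 locus), chromosome 8 from 44505 to 44743 (19 CpGs, 2 loci) and chromosome 17 from 81153380 to 81153659 (19 CpGs, 3 loci). The second chromosome 1 array alone held 37.6% of the members. The unit ran in the direction of rising coordinates on chromosomes 5, 6, 17 and in the first array of chromosome 1, and the other way on chromosome 8 and in the second array of chromosome 1.

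The arrays of chromosomes 5, 6 and 17 ended 34507, 32297 and 33193 bp before the last listed CpG of their chromosome, and the chromosome 8 array began 26230 bp after the first. Those of chromosome 1 lay 427179 and 534277 bp from its first listed CpG. No hg19 gene annotation or genome sequence was used, so neither genes nor the bases of the unit are given.

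In 5 arrays every listed CpG between the first and the last member kept the 68-bp register, the non-member CpGs included. The second array of chromosome 1 held 2 gaps of 64 bp, after which the register shifted, and 71 of its 124 listed CpGs matched a single register. In all, 31 listed CpGs lay between member runs without being members, 28 of them in register. They stood at 9.7% on day 7, against 65.6% on day 0, in pooled reads. Runs that missed a pattern by 1 bp in 1 gap all lay away from the arrays. The 192 CpGs of these 32 runs stood at 11.1% on day 0, far below the members, and kept 15.9% of that level on day 7. The 15 of them at 80% or more on days 0 and 1 had 87.7% on day 0 in pooled reads. They kept 12.5% on day 7, beside 14.2% in members with such a start. On day 6 they kept 23.4%, nearer to the 25.1% of other autosomal CpGs with such a start than to the members' 17.9%.

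The arrays also shared their surroundings, which the rule did not use. A ladder of 7 gaps of 16, 12, 31, 16, 8, 6 and 86 bp stood next to each of the 6 arrays, 94 to 162 bp away on the side where the unit begins, and nowhere else among the listed autosomal CpGs. This ladder was looked for after seeing the data. The first array of chromosome 1 and the chromosome 5 array had the same gaps across all 47 member CpGs, and in both the next listed CpG followed after 3788 bp. Across these 47 pairs of CpGs the levels correlated at r = 0.31 on day 7 and 0.574 on day 0, and the read numbers at 0.795 on day 0. The points share libraries, place in the unit and read depth. Reads from copies this alike can match more than 1 array. The sources used here do not say how such reads were placed, so values of single arrays are uncertain.

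Depth at the members was close to that of the rest. The libraries of days 0, 1, 2, 6 and 7, called deep here, held 77691782 to 161534152 CpG read calls, and those of days 3, 4 and 5 held 12359218 to 15156251. Member CpGs had a median of 46 reads on day 0, against 54 at the other highly methylated CpGs compared below, and no member was above the 99th percentile of all CpGs. In the 3 shallow libraries the family rested on 968 to 1153 reads each, with a median of 3 or 4 per CpG. At least 10 reads in every deep library were found at 294 of the 295 members, so the read minimum removed 1 member and left the family otherwise whole.

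The repeat was highly methylated at the start and held most of its methylation for the first days. Over the 294 CpGs the mean level was 80.8% on day 0 (SD over CpGs 10.5 points), 79.3% on day 1 and 69.9% on day 2. Pooled reads of the same CpGs gave 53.5% on day 3 (Wilson 95% interval 50.6 to 56.3%), 32.3% on day 4 (29.4 to 35.3%) and 23.2% on day 5 (20.9 to 25.8%). The mean was 14.9% on day 6 and 11.3% on day 7 (SD over CpGs 5.0 points). Every day was thus below the day before, and the smallest step, 1.53 points, was the one between days 0 and 1.

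Day by day the loss was uneven. Day 1 kept 98.1% of the level of day 0 and day 2 kept 88.2% of that of day 1. Days 3, 4, 5, 6 and 7 then kept 76.5%, 60.4%, 72%, 64.1% and 75.9% of the day before. The largest relative step fell on day 4, a shallow library. As an exponential decline over all 8 libraries the log slope was -0.309 ± 0.028 per day (SE, n = 8), a halving time of 2.25 days. The 5 deep libraries alone gave -0.309 ± 0.032 per day, and days 2 to 7 gave -0.379 ± 0.015 per day with a halving time of 1.83 days.

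For a comparison at a like starting level, CpGs at 80% or more in the pooled reads of days 0 and 1 were used. The 179 such members stood at 12.3% on day 7, against 86.5% on day 0. The other 1038466 such autosomal CpGs stood at 18.7% on day 7, against 88.9% on day 0. As a share of the day 0 level, the members kept 14.2% on day 7 and the others 21%. On day 6 the members kept 17.9% and the others 25.1%.

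By these shares the order was not the same early on. For days 1, 2 and 3 the shares kept were 98.2%, 84.2% and 62.6% in the members, and 95.2%, 83.5% and 59.9% in the others. From day 4 the members were the lower set, with 36.4% kept in members and 42.4% in the others. By day 5 the members kept 28.2% and the others 35.1%. The log slopes were -0.309 ± 0.025 per day in members and -0.244 ± 0.015 per day in the others (SE, from the same 8 libraries). These SEs do not measure the error of the difference between members and others. By the shares kept, the members were lower than the other CpGs from day 4 on, and not on days 1 to 3. The early order was not firm, so nothing is concluded from it. On day 1 pooled reads gave 84.5% in members (Wilson 95% interval 83.4 to 85.5%) and 84.6% in the others. On day 0 they gave 86.1% and 88.8%, so the day 1 shares differ mainly by their starting level. Members that began at 80 to 90% kept 84.8% on day 2 and the others 83.9%. At 90 to 100% the shares were 81.8% and 82.6%. On day 2 the median over CpGs of the share kept was 83.3% in members and 84% in the others, the reverse of the means. On day 3 the members' 742 reads gave a level of 54.2% (Wilson 95% interval 50.6 to 57.7%), and the others stood at 53.2%.

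**Figure D1:**
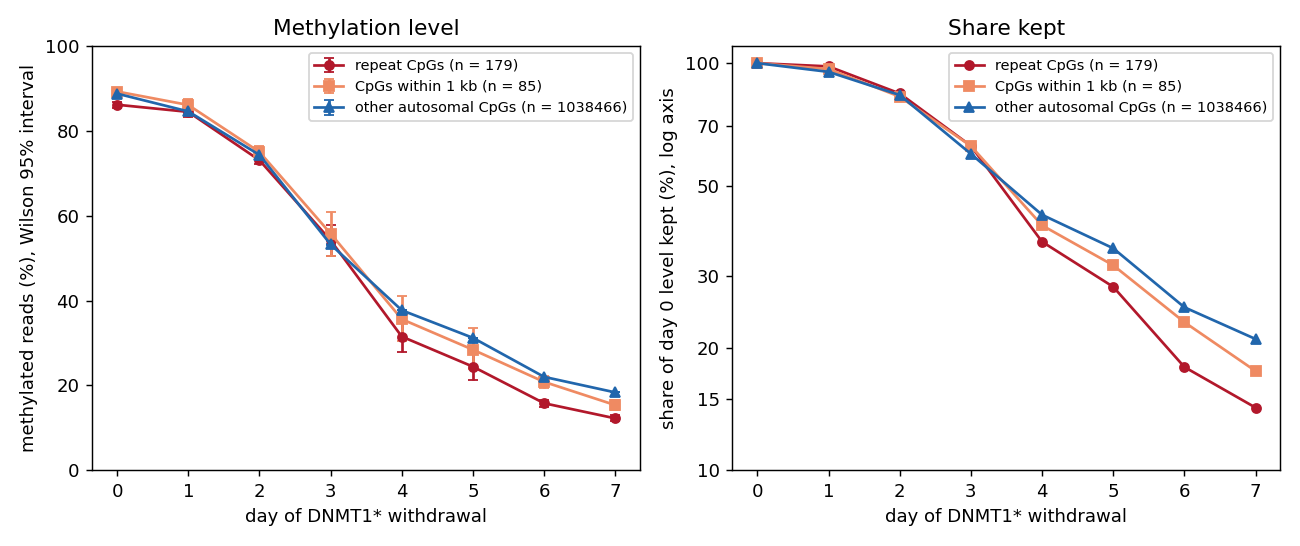
Left, methylated share of pooled reads (%) by day of withdrawal for 179 repeat CpGs, 85 CpGs within 1 kb of the arrays and 1038466 other autosomal CpGs, all at 80% or more on days 0 and 1, with Wilson 95% intervals. Right, the share of the day 0 level kept (%, log axis), where the repeat CpGs lie at or above the others to day 3 and below them from day 4, ending at 14.2% against 21%.

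On day 7 the members kept less than the others in each of 4 classes of starting level, and on day 6 in 3 of them. Members that began between 80 and 90% kept 14.2% on day 7 (149 CpGs) and other CpGs of that class 20.1%. At 70 to 80% the members kept 13.4% (87 CpGs) and the others 19.7%, and at 90 to 100% the members kept 14.6% (30 CpGs) and the others 23%. The 17 members at 60 to 70% kept 15.4% on day 7, against 21.3% in the others, but on day 6 they kept 25.3% and the others 25%. A kept share at most 1/1.5 of the others' median was found on day 7 at 79 of the 179 members (44.1%), and at 20.9% of all 1038645 CpGs tested. The same limit was met on day 6 by 74 members (41.3%), beside 18.9% of all CpGs, and on day 2 by 0 members, beside 0.642% of all CpGs. The family was chosen on this loss, so nothing is read from these counts.

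Nearby CpGs also ended lower than the rest. The 85 highly methylated CpGs within 1 kb outside the arrays kept 17.5% on day 7, between the members' 14.2% and the 21% of the rest. Those 1 to 10 kb away kept 14.6% (40 CpGs), those 10 to 50 kb away 18.8% (81 CpGs) and those 50 to 1000 kb away 20.2% (9801 CpGs). The 5 whole chromosomes kept 20.7 to 21.3%. CpGs within 100 kb of the first or last listed CpG of any autosome kept 18% (5465 CpGs), and on day 2 they kept 86%, more than the members' 84.2%. The part that place near a chromosome end has in the members' values was not tested.

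All 6 arrays stood lower on day 7 than on day 0, and the courses of the 2 smallest differed from the rest on days 4 and 5, as the plot of the 6 arrays shows. The chromosome 6 array, whose single locus spans 7 whole units and the start of another, had pooled levels of 83%, 80.9%, 70.3%, 51.9%, 28.8%, 24.1%, 13.6% and 9.8% from day 0 to day 7. It kept 11.8% of its day 0 level on day 7. Its 7 whole units ranged from 7.28 to 14.2% on day 7 and from 78.9 to 88.7% on day 0, with 357 to 396 reads each on day 0.

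The second, longer array of chromosome 1 had 81.5%, 81.3%, 72.7%, 51.6%, 26.9%, 23.8%, 15.3% and 12.5% from day 0 to day 7 and kept 15.3%. The first array there had 83.4%, 76.5%, 69.1%, 57.7%, 33.7%, 18.2%, 15.5% and 11.9% and kept 14.2%. The chromosome 5 array, which has the same ladder, had 80.7%, 77.6%, 71.2%, 62.9%, 32%, 24.2%, 16.9% and 11.1% and kept 13.7%. The first array of chromosome 1 was the lowest of these 3 on days 1 and 2 and the highest on day 0, and on day 7 the 3 lay close together.

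The 2 small arrays stood apart on the shallow days, where their values rest on few reads. On chromosome 8 the levels were 80.8%, 76.8%, 64%, 53.5%, 52.7%, 12.2%, 13.6% and 9.57%, and the day 4 value rested on 91 reads (Wilson 95% interval 42.6 to 62.7%). On chromosome 17 they were 75.6%, 78.4%, 66%, 43.4%, 37.3%, 43.3%, 16.4% and 12%, and the day 5 value rested on 67 reads (32.1 to 55.2%). Over all 6 arrays the share kept ranged from 11.8% (chromosomes 6 and 8) to 15.9% (chromosome 17) on day 7, and from 79.2 to 89.2% on day 2. Log slopes in the 5 deep libraries ran from -0.333 ± 0.034 per day on chromosome 6 to -0.294 ± 0.033 on chromosome 17. These SEs measure scatter of the days about a straight line, in libraries that all arrays share. They do not measure the error of a difference between arrays.

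**Figure D2:**
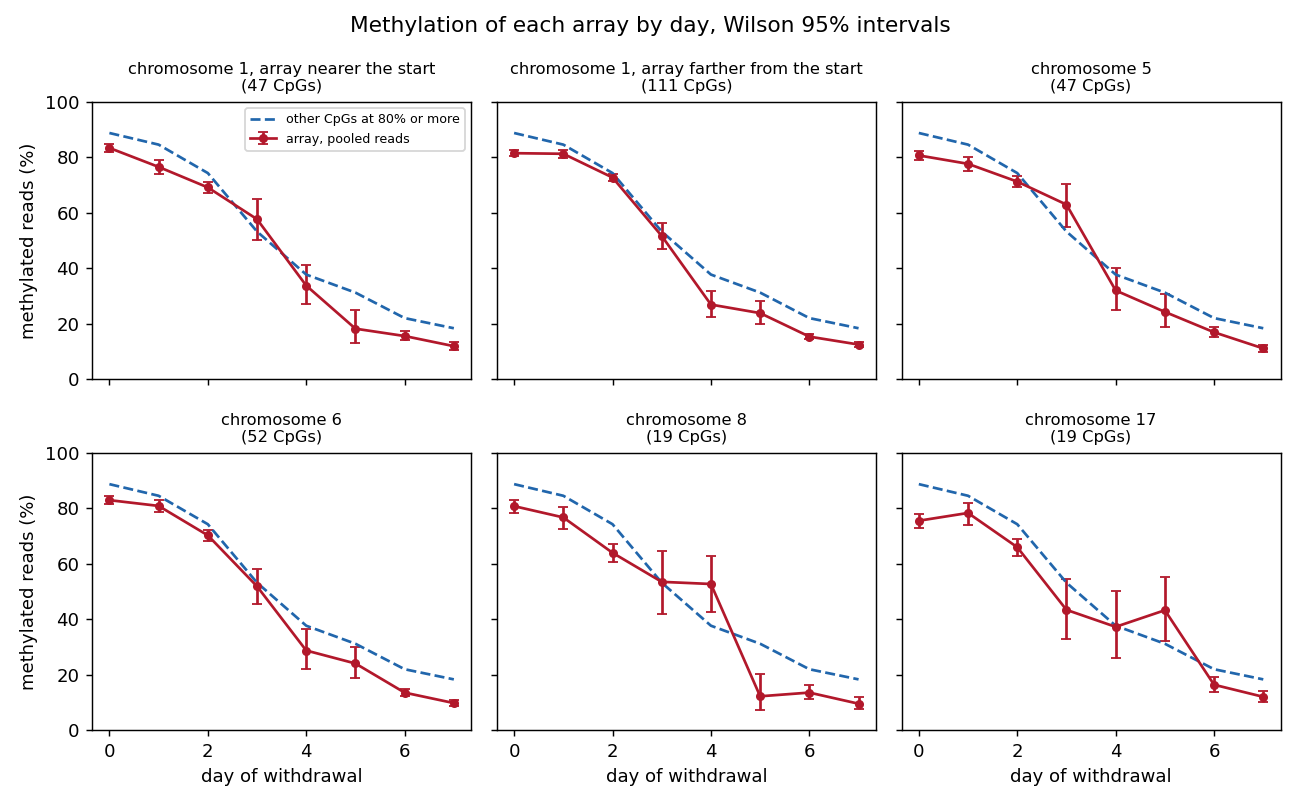
Methylated share of pooled reads (%) by day of withdrawal in each of the 6 arrays (red, Wilson 95% intervals), with the other autosomal CpGs at 80% or more as a dashed blue line. All 6 arrays end below the dashed line, at 9.57 to 12.5% on day 7, and the wide intervals of days 3 to 5 come from the shallow libraries. The arrays hold members of any starting level and also began below the line, at 75.6 to 83.4% on day 0 against 88.8%.

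Among the 18 loci, the pooled level had a median of 11.2% on day 7 (range 9.12 to 13.8%), against 82.4% on day 0 (69.6 to 89.7%). With days 6 and 7 pooled, loci kept between 12.9 and 20.4% of their day 0 level, with a median of 16.7%. The other CpGs at 80% or more kept 22.7% by the same measure. Every locus lay below that value, though for 2 chromosome 17 loci of 6 CpGs each the interval of the late level reached past it.

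By the rule for named loci, which asks for 80% or more on days 0 and 1 and at least 4 well-read CpGs, the lowest was on chromosome 1 from 438084 to 438159, the last stretch of the first array. Its levels on days 0, 1, 2, 6 and 7 were 89.7%, 76.4%, 71.3%, 13.9% and 9.98%, and it kept 13% over days 6 and 7. Next came the chromosome 6 locus with 14%, the chromosome 5 locus from 180864638 to 180864713 with 14.2% and the chromosome 1 locus from 545351 to 545453 with 14.8%. The named stretches of chromosome 5 and of the first array of chromosome 1 are the same part of the same ladder. The lowest of all 18, at 12.9% on chromosome 8 from 44672, began below 80% and so falls outside the rule.

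The highest by the same rule was the chromosome 5 locus from 180864513 to 180864614, with 84.8%, 81.5%, 72.9%, 21.7% and 11.2% on the same 5 days and 19.3% kept over days 6 and 7. Its day 6 value was the highest of any locus, while its day 7 value was at the median. The chromosome 17 loci from 81153380 and from 81153516 kept more, 20.4 and 19.6%, but began below 80% over days 0 and 1 and so fall outside the rule. The copy of the same stretch on chromosome 1, from 437959 to 438060, began at 77.6% and kept 14.6%. Between 17.5 and 18.2% was kept by the chromosome 1 loci from 437676 to 437924, from 545079 to 545290 and from 545551 to 545762, which with chromosome 6 are also the 4 loci with the most reads. The neighbouring chromosome 5 loci from 180864513 and from 180864638 thus lay far apart by this measure, at 19.3 and 14.2%. That gap came from day 6, with 21.7 and 12.9%, while on day 7 both stood at 11.2%.

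**Figure D3:**
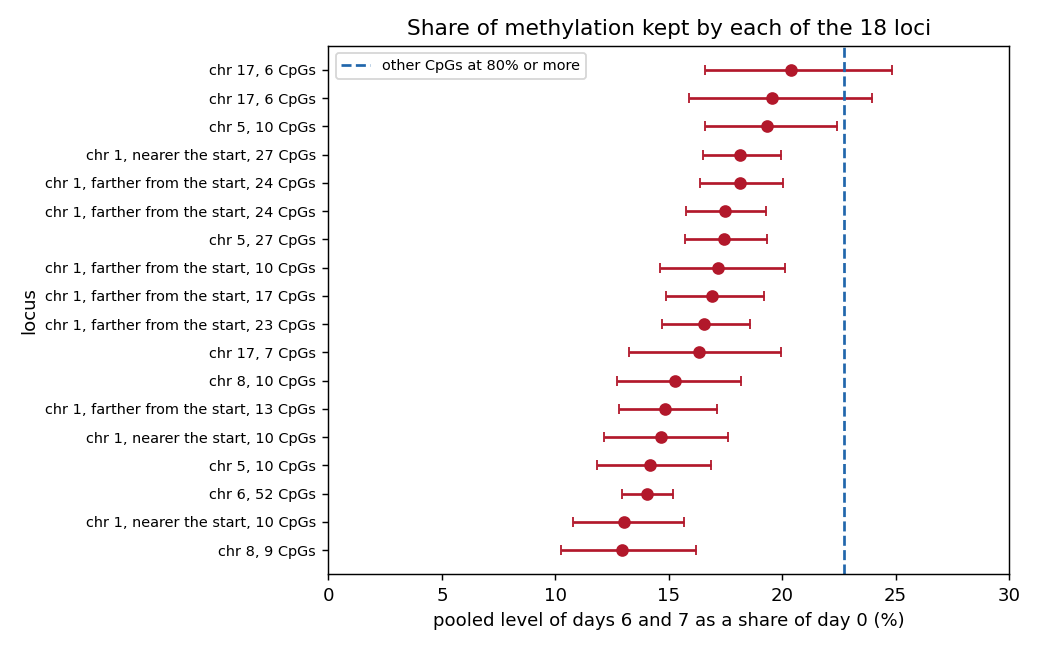
Level of days 6 and 7 pooled as a share of the day 0 level (%) for the 18 loci, one row each, highest at the top. Bars show the Wilson 95% interval of the late level only, and the dashed line marks the 22.7% of other CpGs at 80% or more, which every point lies below.

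Levels differed by place in the unit. Place 2, which lies 4 bp after place 1 and 3 bp before place 3, was the most methylated CpG: its pooled level was 14.7% on day 7 (Wilson 95% interval 13.2 to 16.4%), against 89.5% on day 0 (88.1 to 90.7%). At the other 6 places the level ranged from 9.56% (place 5) to 11.9% (place 3) on day 7, and from 76.2% (place 7) to 82.8% (place 3) on day 0. On day 2 place 2 stood at 79.3% and the others between 64.7 and 73.1%, and on day 6 place 2 stood at 19.1% and the others between 13.1 and 16.2%.

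On day 0 place 2 was 10.3 points above the mean of the other places, with each CpG weighted equally. It was the highest place in all 6 arrays on days 0, 2 and 6, in 5 of them on day 7 and in 4 on day 1. In the 16 loci with all 7 places it was above the mean of the others in 15 on day 7 and in 16 on day 0. It was the highest place in 9 on day 7 and in 11 on day 0. Its nearest neighbours did not share this level: place 1 was at 80.3% and place 3 at 82.8% on day 0. The arrays and loci share libraries, the loci are parts of the arrays, and reads can match more than 1 array. The tallies over them are thus not independent counts.

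The share kept also varied by place, within a narrow range. As means over CpGs, on day 7 place 2 kept 16.4% of its day 0 level, places 3 and 4 kept 14.4 and 14.7%, and place 5 kept the least, 12.2%. On day 2 the range was 83.8% (place 4) to 88.6% (place 2). Log slopes over the 5 deep libraries ran from -0.33 ± 0.035 per day at place 5 to -0.284 ± 0.03 at place 2. Their SEs likewise do not measure the error of a difference between places. All 7 places were below the 21% kept by other highly methylated CpGs.

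Neighbours 2 or 3 bp apart were not always alike. The pair of places 7 and 1, with 2 bp between them, differed by a median of 4.36 points on day 0 (34 pairs), and places 5 and 6, 3 bp apart, by 4.81 points (42 pairs). Places 2 and 3, also 3 bp apart, differed by 7.3 points (46 pairs), and places 1 and 2, 4 bp apart, by 8.55 points (46 pairs). Across the 30-bp gap, places 4 and 5 differed by 9.65 points (38 pairs) in either direction, while their means were 78 and 78.4%. These differences hold counting error as well as any real one, at 36.6 (place 6) to 89.4 (place 3) mean reads per CpG on day 0. Neighbouring CpGs can also lie on the same reads, and the part of this in the differences was not tested.

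Reads were not spread evenly over the unit. Place 3 had 81.6 reads per CpG on day 7 and the other places 31.4 to 42.9, while on day 0 place 3 had 89.4 and the others 36.6 to 49.3. The strand given in the files followed the unit at 5 of the 7 places: at places 1, 2, 6 and 7 it was the strand opposite to the unit's direction at every CpG, and at place 4 it was the strand of the unit at all 38. Places 3 and 5 did not follow it: the plus strand was given at 43 of 46 CpGs of place 3 and at all 42 of place 5, whichever way the unit ran. Places 1 and 2 were given on the same strand, with 48.1 and 49.3 reads per CpG on day 0, and place 2 lay 9.13 points above place 1 on that day. The part of strand and depth in the place values was not tested.

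**Figure D4:**
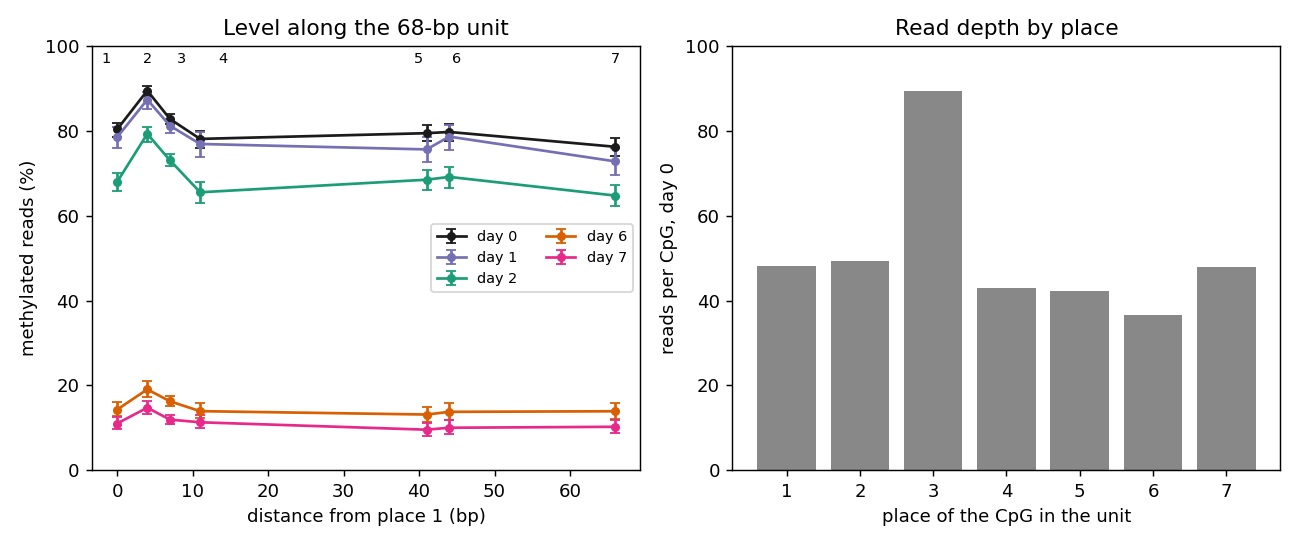
Left, methylated share of pooled reads (%) at places 1 to 7 (numbered at the top) against distance from place 1 (bp) on the 5 deep days, with Wilson 95% intervals; place 2 is the highest point of each line. Right, mean reads per CpG on day 0 by place, with 89.4 at place 3 and at most 49.3 elsewhere.

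How the patterns sit among all spacings was read from runs of 6 CpGs grouped by their 5 gaps. Of 1156 families with 30 or more runs, 800 stood at 70% or more on day 0. Ranked from the lowest share kept over days 6 and 7, the patterns 30-3-22-2-4, 4-3-4-30-3 and 3-22-2-4-3 came at ranks 6, 9 and 10, with 16%, 16.2% and 16.2% kept and a median of 23.6% in the other 797 families. The 4 remaining rotations of the 68-bp unit, which share CpGs with the members, were also among the first 13. Of the 5 families below the lowest pattern, 4 were not rotations of the unit, so the family was near the bottom and not the lowest of all by this measure. On day 2 the 3 patterns ranked 222, 462 and 371, at 85.5%, 87.2% and 86.5%, beside a median of 86.8%. The ranks are a description and not a test, since the patterns were chosen on their loss, by a measure that the sources used here do not state.

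**Figure D5:**
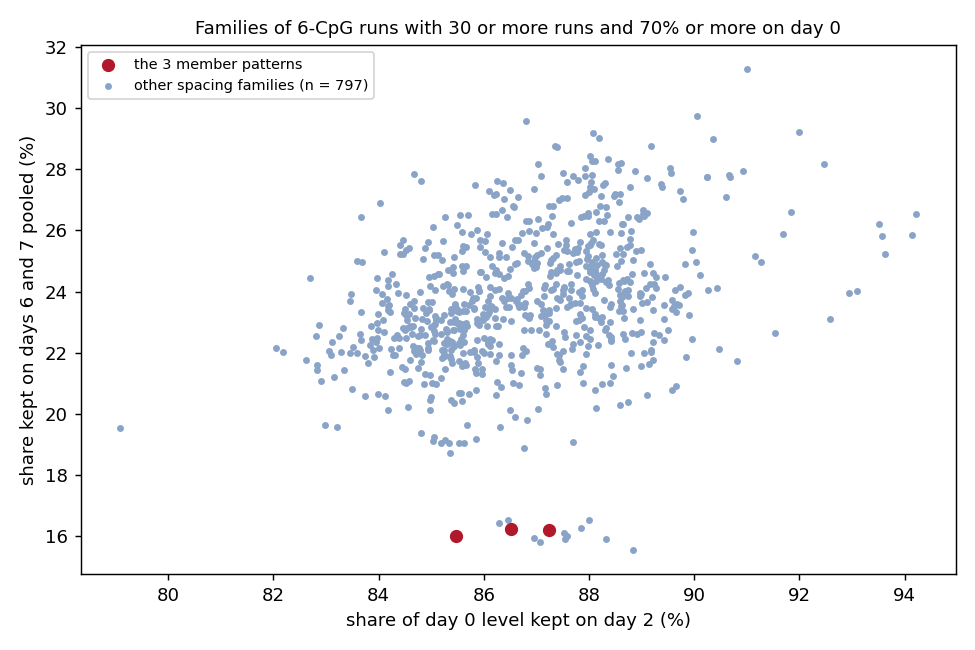
Share of the day 0 level kept on day 2 (%, horizontal) and on days 6 and 7 pooled (%, vertical) for 800 families of 6-CpG runs. The 3 member patterns (large red points) lie in the middle of the horizontal range and at 16 to 16.2% near the bottom of the vertical one, where the other families have a median of 23.6%.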

How the data were processed

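Per the labels, RRBS libraries of HUES64 DNMT1 knockout cells were made on 8 days, 1 library a day. The submitters' processing notes name the build hg19. The sources used here do not name the aligner or methylation caller, or say how duplicate and multiply matching reads were handled. The authors deposited, for each CpG, methylated and total reads as 1 text field, a score equal to 1000 times the methylated share, and a strand. The deposited score matched the reads at 100% of lines and was not used further. CpGs were joined by position, counted from 1, on the 22 autosomes.

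Levels on the 5 deep days are means over CpGs with 10 or more reads in each of them, and levels on days 3 to 5 are pooled reads of the same CpGs. Levels of arrays, loci and places are pooled reads. The planned places 8 to 10 coincide with places 1 to 3 of the next unit and were counted there. Kept shares divide a level by that of day 0. Log slopes are least squares of the natural log on day, and their SE comes from the scatter of the days about the line. Wilson 95% intervals cover counting error only: without molecular identifiers, several reads may come from 1 molecule. An array joins loci under 1000 bp apart. Named loci, among 11 with 80% or more on days 0 and 1 and 4 or more well-read CpGs, are the 4 lowest and 4 highest by share kept over days 6 and 7, the 4 with the most reads and the one with the most CpGs. The members, the lists and the rules were chosen with earlier results of these data known. The search, the rates and their code were tested on simulated positions and reads. Python 3.11.15, numpy 2.4.6, pandas 2.3.3 and matplotlib 3.10.9 were used.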

Additional observations from a re-analysis of the deposited data

How the results depend on the processing

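Over 72 alternatives, 16 for the level on day 7, 21 for the difference in share kept, 25 for the decline rate, 9 for place 2 and 1 for the member count, no value changed sign. A level or a count cannot change sign, and the family was chosen on its loss, so this tally is no test of the results. With at least 5 or 20 reads per CpG, pooled reads, equal weight per locus, an upper limit on coverage, single patterns, or loci with 2 or more runs only, no value moved by more than its counting error or SE. The 5-read minimum and the coverage limit left the members' own values unchanged. The members minus others difference in share kept on day 7, -6.76 points, was -8.37 with CpGs at 90% or more, and -3.27 beside the 85 CpGs within 1 kb of the arrays, a set added after seeing the data. Beside other runs spanning 41 to 76 bp it was -6.39, and beside those of 34 to 61 bp, an added choice, -6.42. Without the second array of chromosome 1, also an added choice, it was -7.72, and the level on day 7 was 10.7% in place of 11.3%. The cause was not tested. Leaving out each day in turn gave log slopes of -0.349 (without day 0) to -0.296 per day. With only CpGs found in all 8 libraries, the rule found 226 members in 15 loci, not 295 in 18. No paired analysis was possible because each day has 1 library. Values of single loci on days 3 to 5 rest on 11 to 237 reads.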
